A study of Canis lupus familiaris with 10 samples.

Results

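The comparison described here set chromatin accessibility in 17-71 cells against that in CLBL-1 cells, both exposed to 100 nM of the PRMT5 inhibitor C220. The treated libraries were 2 from 17-71, named B4 and B6 and collected on day 4, and 3 from CLBL-1, named C4, C5 and C6 and collected on day 2. They made up 5 of the 10 libraries of the series. The other 5 were control libraries without the inhibitor, 3 from 17-71 (B1, B2 and B3) and 2 from CLBL-1 (C2 and C3). Both are established canine B-cell lymphoma lines whose source is labelled as lymph node, and the compound is labelled PR220. The collection days were chosen by the study for each line from its sensitivity and from the loss of symmetric arginine dimethylation. Cell line, day of collection and library preparation therefore cannot be told apart in any difference given here. The study describes its experiments as biological triplicates, but the labels do not say whether the libraries of a group came from separate cultures, and the p-values measure only the spread between these libraries.

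PRMT5 places symmetric dimethyl marks on arginines of histones, including arginine 3 of histone H4, and of proteins that assemble the spliceosome. Its histone marks are mostly known from repressed promoters. In the assay for transposase-accessible chromatin (ATAC-seq), a transposase inserts sequencing adapters where DNA is not wrapped tightly, and stretches with many insertions are called as peaks. Open sites away from gene starts differ widely between cell types and between tumours of the same type, whereas many gene starts are open in most cells.

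Each treated library had one list of broad peaks, with the fold enrichment of each peak over the local background expected by the peak caller. The lists held 22076 peaks in B4, 27646 in B6, 27026 in C4, 27247 in C5 and 23082 in C6. The number of peaks did not separate the lines, at 24861 ± 3939 (SD, n = 2) in 17-71 and 25785 ± 2343 (SD, n = 3) in CLBL-1 (two-sided exact permutation test, p = 0.7). The peaks were narrower in 17-71. Their median width was 714 bp in B4 and 872 bp in B6, against 968, 963 and 931 bp in C4, C5 and C6. The significance of the peaks was also lower in 17-71, with a median −log10 p of 8.07 in B4 and 8.48 in B6 against 11.7, 11.5 and 10.5 in CLBL-1. Neither measure overlapped between the lines, and with 2 libraries against 3 the exact test reached its smallest possible value for both, p = 0.1. The covered length was 18.8 Mb in B4 and 28.2 Mb in B6, and that of B6 lay within the 25.3 to 30.4 Mb of CLBL-1 (two-sided exact permutation test, p = 0.3). The peak lists hold no read counts, so the depth behind each list is unknown.

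**Figure D1:**
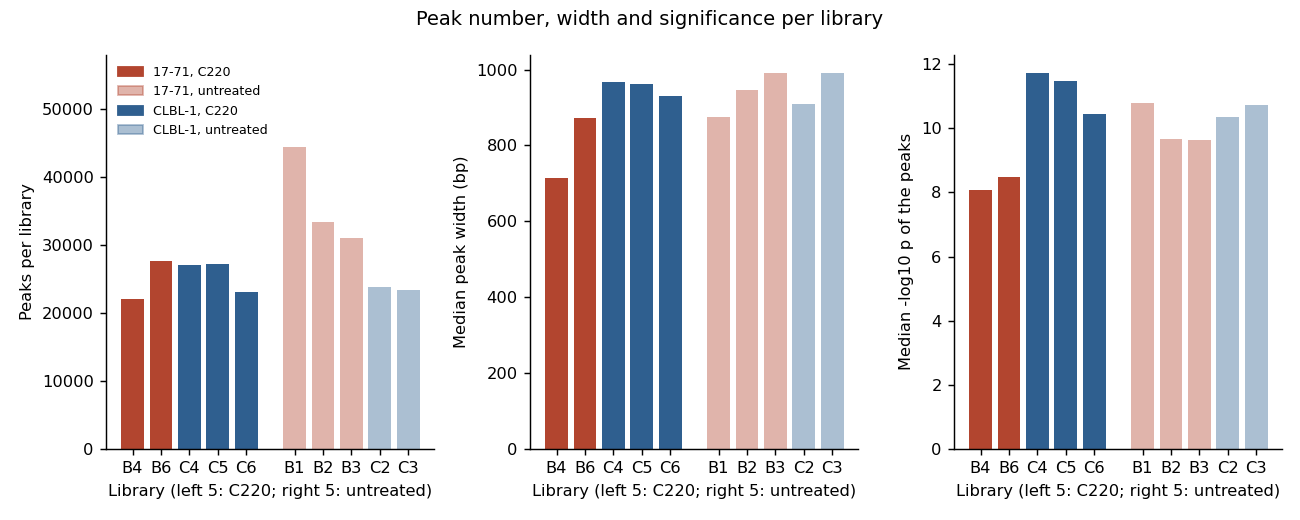
Number of peaks (left), median peak width in bp (middle) and median −log10 p of the peaks (right), 1 bar per library, with the 5 C220 libraries to the left and the 5 untreated ones to the right of each panel. The 2 treated 17-71 libraries had the narrowest peaks and the lowest median −log10 p of the 10 libraries.

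To set the lines side by side on lists of the same length, the 20000 peaks with the largest fold were kept in each library. The fold of the last peak kept was 3.17 in B4, 3.24 in B6, 3.49 in C4, 3.32 in C5 and 3.50 in C6. The share of peaks with an overlapping peak in the other library, averaged over both directions, was 74.6% between B4 and B6. Within CLBL-1 it lay between 83.4% and 84.9%, with a mean of 84.2% over 3 pairs. Between the lines it lay between 46.1% and 47.1%, with a mean of 46.6% over 6 pairs. Every pair within a line thus shared more than every pair between lines. The mean within lines was 35.1 percentage points above that between lines. In a one-sided exact permutation test this gave p = 0.1, and the 10 possible splits allow no smaller value. Untreated libraries of the opposite lines shared 47.0% on average, with a range of 46.4% to 47.5%, close to the treated value. Treated and untreated libraries of 17-71 shared 68.9% to 78.0%, and those of CLBL-1 shared 83.3% to 83.9%. B4 was in the lowest of these pairs.

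**Figure D2:**
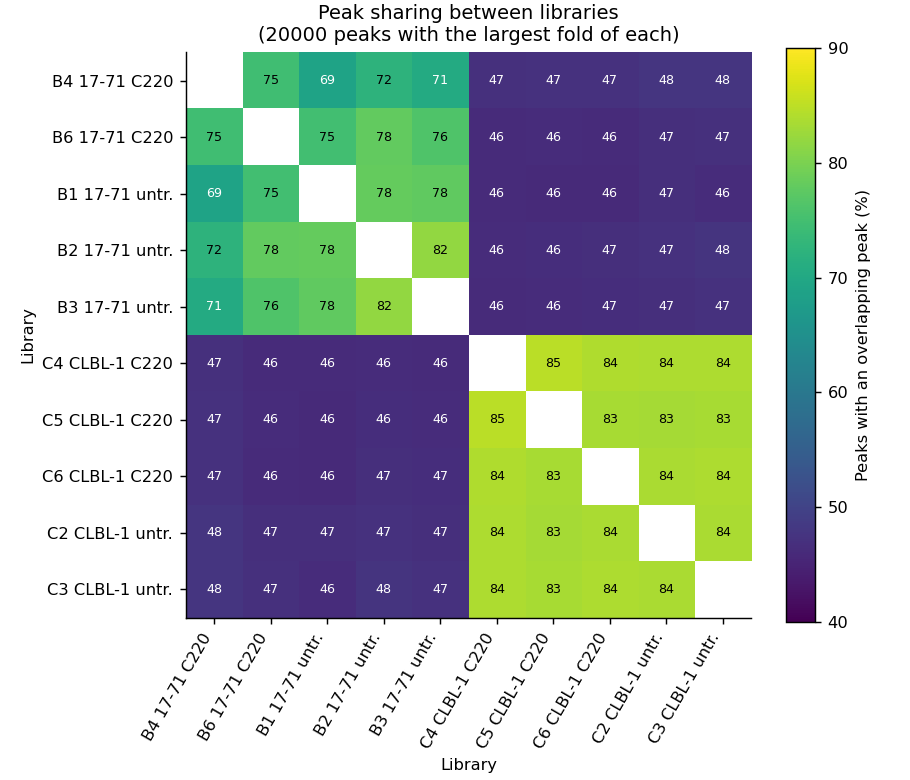
Percent of peaks that overlap a peak of the other library, for each pair of the 10 libraries, with lists of 20000 peaks each. Libraries of the 2 lines form separate blocks, with all pairs between treated 17-71 and treated CLBL-1 between 46.1% and 47.1%.

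Touching and overlapping peaks of the 5 treated libraries were merged into 37962 regions. Of these, 6290 (16.6%) held a peak in both 17-71 libraries and in no CLBL-1 library, and 6066 (16%) held a peak in all 3 CLBL-1 libraries and in neither 17-71 library. A further 7265 regions (19.1%) held a peak in all 5. The sets differ in how many libraries they require, 2 and 3. Without B4 the counts were 9746 and 7245, and without B6 they were 9535 and 7106. With the full lists, 7644 of 46135 regions (16.6%) were found only in 17-71, 8132 (17.6%) only in CLBL-1 and 9778 (21.2%) in all 5. The balance moved when the full lists were cut at a −log10 p of 10. Then 2376 regions were found only in 17-71 and 5640 only in CLBL-1, from lists of 7908 and 10925 peaks in B4 and B6 and of 12081 to 15386 peaks in CLBL-1. Most line-specific regions of the equal-length lists had no weaker peak in the other line either. No peak of the full CLBL-1 lists touched 5729 of the 6290 regions (91.1%), and none of the full 17-71 lists touched 5380 of the 6066 (88.7%). In bulk libraries, fewer cells with an open site and less opening in each cell cannot be told apart.

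The median width of the merged region was 943 bp in the 17-71 set, 1127.5 bp in the CLBL-1 set and 1400 bp in the regions held by all 5 libraries. The smallest fold over the carrying libraries had a median of 3.78 in the 17-71 set and 4.05 in the CLBL-1 set, beside 4.06 in the shared regions. Its highest value was 8.38 in the 17-71 set, 13.2 in the CLBL-1 set and 16.6 in the shared regions. The merged width grows, and the minimum falls, with the number of libraries, which was 2 in the 17-71 set, 3 in the CLBL-1 set and 5 in the shared regions, so these values are not like for like.

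The 17-71 set was led by a region at chrX:106136365-106137210 (all positions on CanFam3.1), with a fold of 8.38 in B4 and 9.69 in B6. It was followed by chr4:24134833-24135684 (7.92 and 8.24), chr31:2932163-2932847 (9.32 and 7.69), chr14:16285815-16286488 (7.51 and 7.89) and chrX:102023244-102024016 (8.66 and 7.49). The CLBL-1 set was led by chr8:13459041-13459468, with a fold of 13.6 in C4, 13.2 in C5 and 13.5 in C6. The next were chr5:85380183-85380823 (12.3, 12.3 and 12.0), chr38:4019272-4019751 (11.3, 11.0 and 11.1), chrX:1088439-1089246 (9.67, 9.78 and 10.2) and chr5:80601284-80601874 (9.64, 9.42 and 9.91). Each of these 10 regions also held a peak in every untreated library of its own line and in none of the other line. The ranking by the smallest fold favours regions whose libraries are alike, so their closeness within a line is not a result.

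The untreated libraries took no part in the choice of regions and were looked up next. Of the 6290 regions only in treated 17-71, 4060 (64.5%, 95% Wilson interval 63.4% to 65.7%) held a peak in all 3 untreated 17-71 libraries and in neither untreated CLBL-1 library. Over all merged regions that pattern was found in 14.7%. Of the 6066 regions only in treated CLBL-1, 4156 (68.5%, 67.3% to 69.7%) held a peak in both untreated CLBL-1 libraries and in no untreated 17-71 library, beside 16.7% of all merged regions. The intervals cover counting error over regions only, and regions are not replicates. The opposite pattern was found in 4 regions of the 17-71 set and 3 of the CLBL-1 set. A peak in at least 1 untreated library of the same line was present in 92.6% of the 17-71 set and 96.8% of the CLBL-1 set. Of the 17-71 set, 3.04% held a peak in C2 and 2.99% in C3. Of the CLBL-1 set, 11.3% held a peak in B1, 9.15% in B2 and 9.92% in B3. Each of these 5 libraries held a peak in 46.5% to 50% of all merged regions. With full instead of equal-length untreated lists, 7.17% of the 17-71 set held a peak in C2 and 6.84% in C3. Of the CLBL-1 set, 41.9% then held one in B1, 24.6% in B2 and 23.8% in B3. The shares of all merged regions were then 54.9% to 76%.

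**Figure D3:**
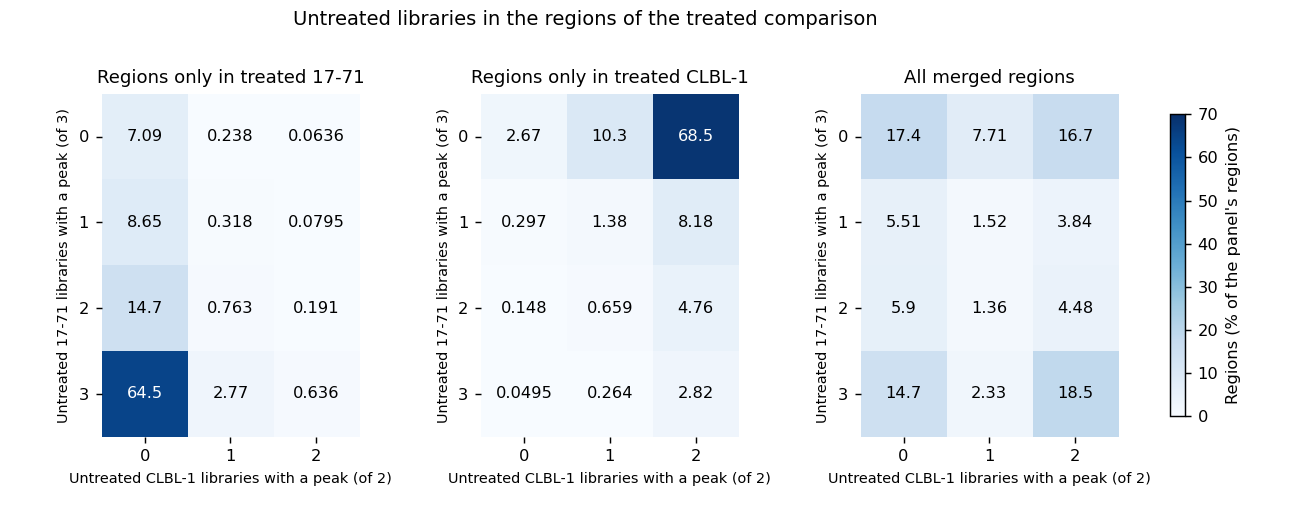
Percent of regions by the number of untreated 17-71 libraries (vertical, of 3) and untreated CLBL-1 libraries (horizontal, of 2) with a peak, for the regions only in treated 17-71, only in treated CLBL-1 and for all merged regions. The most frequent pattern repeated the treated one, in 64.5% and 68.5% of the line-specific regions against 14.7% and 16.7% of all regions.

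In a small group of regions the presence of a peak differed between the lines under C220 but not without it, which says nothing of its height. With the full lists of all libraries, 546 regions of the CLBL-1 set (9%) held a peak in all 5 untreated libraries and in neither treated 17-71 library. Only 24 regions of the 17-71 set (0.382%) held a peak in all 5 untreated libraries and in no treated CLBL-1 library. These counts stand beside the lengths of the lists, which in 17-71 were 22076 and 27646 peaks treated against 30943 to 44378 untreated, and in CLBL-1 23082 to 27247 treated against 23318 and 23822 untreated. The part of list length in the counts was not tested. The strongest of the 546 lay at chr10:16958090-16959004, with folds of 7.40, 7.88 and 7.18 in treated CLBL-1, no peak in treated 17-71, and untreated folds of 7.53 and 6.57 in CLBL-1 against 3.49, 3.76 and 3.70 in 17-71. The line difference in height was thus present there without the inhibitor. In 269 of the 546 regions every untreated CLBL-1 fold was above every untreated 17-71 fold, and in 7 the reverse held. Regions with no peak in any untreated list numbered 29 in the 17-71 set and 76 in the CLBL-1 set.

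Gene names were available only for regions that the study had listed with a gene within 5 kb. That list was ordered by the study on the effect of C220 within a line, so its regions are not a sample of the genome, and the treated and untreated values at these genes are descriptions only. It gave 696 pairs of a region and a gene, of which 433 carried a gene name. In the equal-length lists, 57 pairs (8.19%) fell in regions only in treated 17-71, 67 (9.63%) in regions only in treated CLBL-1 and 127 (18.2%) in regions of all 5 libraries, beside 16.6%, 16% and 19.1% of all merged regions, and 215 (30.9%) had no peak. The split depended on which line's list gave the pair. Of 515 pairs listed for 17-71, 9.32% were only in 17-71 and 4.08% only in CLBL-1, and of 181 listed for CLBL-1, 4.97% and 25.4%. Named pairs came to 33 with 30 names in the 17-71 set and to 46 with 41 names in the CLBL-1 set. The 15 with the largest smallest fold in each line are described first.

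In 17-71 the highest fold was inside ALYREF, which encodes an adaptor for the export of mRNA from the nucleus. The region at chr9:400075-401333 had a fold of 7.70 in B4 and 5.55 in B6. Weaker peaks of 2.44 in C4 and 2.26 in C5 were present in the full CLBL-1 lists, and C6 had none. Upstream of CST8, a cystatin-family protease inhibitor, the folds were 6.85 and 5.51. Inside THNSL1, a gene related to bacterial threonine synthases, they were 5.40 and 5.76. Neither of these had a peak in any CLBL-1 library, treated or untreated. FADS2 encodes a desaturase of polyunsaturated fatty acids, and a region upstream of it had folds of 4.78 and 4.25. PTPRH, a receptor tyrosine phosphatase, had 4.18 and 4.27 in a region upstream. A region inside INPP5B, an inositol phosphate phosphatase, had 4.64 and 4.18. EIF3K, a subunit of a translation initiation factor, had 4.07 and 4.93. The others were at FTCD, DUSP3, CHI3L1, CETN1, TNNT2 and RBP3 and at copies of the U6 and U4 small nuclear RNA genes. The smallest fold over these 15 regions ran from 3.84 to 5.55. Of the 15, 12 had no peak in any full list of treated CLBL-1. A peak in all 3 untreated 17-71 libraries with none in untreated CLBL-1 was found in 13. Over the whole 17-71 set, 84.4% had that pattern with full untreated lists.

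In CLBL-1 the list began with a region upstream of USP12, which encodes a deubiquitinase, at chr25:12387682-12388683. Its folds were 6.31 in C4, 6.08 in C5 and 6.47 in C6, with no peak in treated 17-71. All 3 untreated 17-71 libraries held a peak there, at 3.01, 2.52 and 3.098. HNRNPU encodes an RNA-binding protein of the nuclear matrix, and a region inside it showed the same order, with 5.46, 6.86 and 5.59 in treated CLBL-1, none in treated 17-71 and 2.81, 2.58 and 2.61 in untreated 17-71. At the start of MAFF, a small Maf transcription factor, the folds were 6.45, 5.56 and 5.43. Upstream of NFIC, a nuclear factor I transcription factor, they were 5.34, 5.45 and 5.53, and inside CDK5RAP3 they were 6.32, 5.94 and 7.34. These last 2 had no peak in any 17-71 library. MKNK2, a kinase that phosphorylates a translation initiation factor, had 5.52, 5.23 and 5.83 in a region inside the gene. WIPI2, a protein of autophagosome formation, had 5.22, 4.44 and 5.11 at its start. The remainder were at FRRS1, SLC16A11, KLHDC9 and PLA2G6 and at copies of the U1 and U2 small nuclear RNA genes. The study's region at the start of KLHDC9 spans 2 merged regions, of which the neighbouring one, at chr38:21370219-21371489, was found only in 17-71 (3.66 and 3.82). The smallest fold over these 15 regions ran from 4.44 to 6.08. Of the 15, 12 had no peak in either full list of treated 17-71, and all 15 had a peak in both untreated CLBL-1 libraries. In 6 of the 15 no untreated 17-71 library held a peak, so 6 repeated the treated pattern without the inhibitor. In another 6 all 3 untreated 17-71 libraries held one. Over the whole CLBL-1 set, 50.2% repeated the treated pattern with full untreated lists. Of all 46 named pairs of the CLBL-1 set, in which a region with more than one pair counts for each, 21 held a peak in every untreated 17-71 full list, and of the 33 of the 17-71 set, 6 held one in both untreated CLBL-1 lists. Over the whole sets these shares were 17.8% and 4.85%, and the order of the study's list by the effect of C220 favours such regions.

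**Figure D4:**
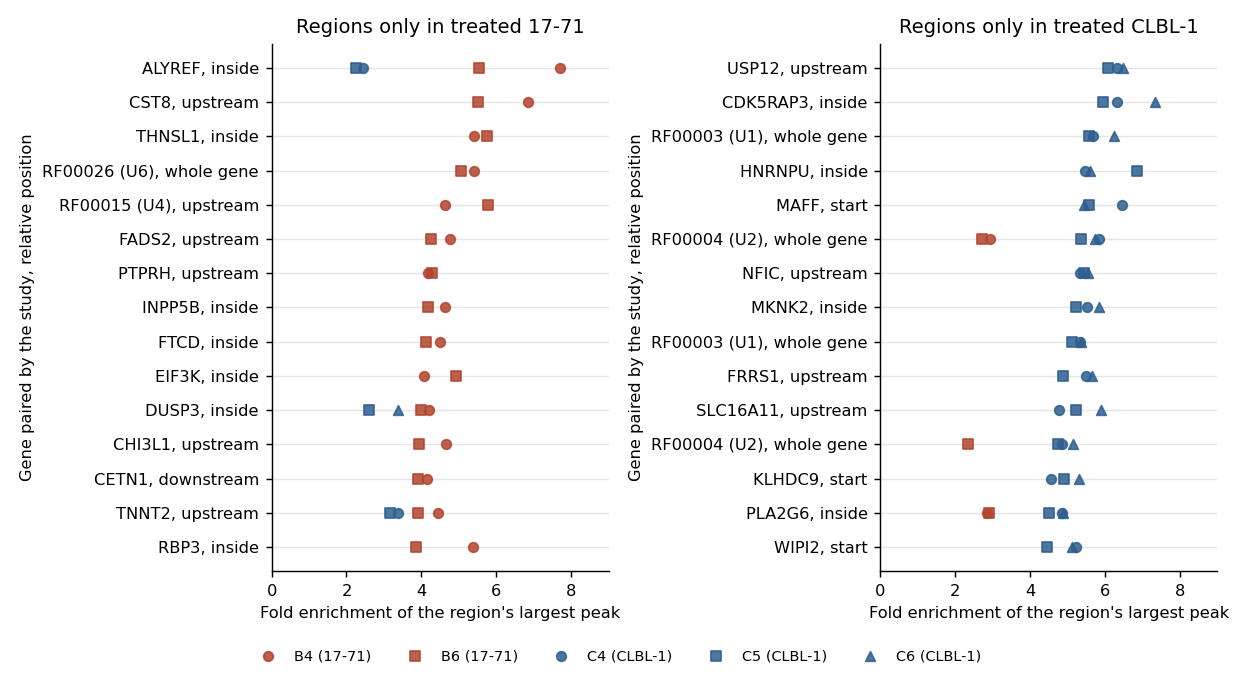
Fold enrichment of the largest peak in the full list of each treated library (horizontal) at the 15 gene-paired regions only in treated 17-71 (left) and only in treated CLBL-1 (right) with the largest smallest fold, named by gene and relative position. Red symbols of the other line in the right panel and blue ones in the left panel are peaks outside the 20000 with the largest fold, present at ALYREF, DUSP3 and TNNT2 in CLBL-1 and at 2 U2 gene copies and PLA2G6 in 17-71.

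Genes of chosen functional groups were then read in the full lists, in which 16.6% of all merged regions were found only in 17-71, 17.6% only in CLBL-1 and 21.2% in all 5. Among 28 regions at 27 genes of surface receptors, 10 were open in all 5 libraries, 4 only in 17-71 and 3 only in CLBL-1. In the equal-length lists these counts were 4, 0 and 0, and 10 of the 28 regions held no peak. The 4 found only in 17-71 in the full lists lay at the start of CD101 and inside CD180, KIT and TLR7. Inside KIT, the stem cell factor receptor, the folds were 3.07 in B4 and 2.61 in B6, and inside TLR7, an endosomal receptor for single-stranded RNA, 2.97 and 3.49. No CLBL-1 library, treated or untreated, had a peak in any of these 4 regions. The 3 in CLBL-1 were at IL21R, LPAR6 and PLXNA3. Downstream of IL21R, a cytokine receptor of lymphocytes, the folds were 3.14, 3.04 and 3.26. Untreated 17-71 libraries held peaks in all 3 of these regions, B1 at IL21R (3.33) and PLXNA3 (4.01) and B2 and B3 at LPAR6 (2.72 and 2.799). BST2, an interferon-induced membrane protein, was open in all 5, with a fold of 17.1 in B4, 14.5 in B6 and 14.9, 15.2 and 14.97 in C4, C5 and C6.

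Of 8 regions at 6 antigen presentation genes, 4 were open in all 5 libraries, none only in 17-71 and 1 only in CLBL-1. The equal-length lists held 2 in all 5, 1 only in 17-71 (DLA-DRA) and 0 only in CLBL-1. The full-list region of CLBL-1 was at the start of DLA-DOB, a class II chain that regulates peptide loading. It had 3.18, 3.45 and 3.15 in treated CLBL-1. All 3 untreated 17-71 libraries also held a peak there, at 3.45, 3.29 and 3.18. Of 21 regions at 20 genes of B cell receptor and kinase signalling, 8 were open in all 5, 2 only in 17-71 and 2 only in CLBL-1. These counts were 4, 0 and 3 in the equal-length lists. The full-list regions of 17-71 were inside RAC1, a small GTPase (4.37 and 3.16), and upstream of SPRY4 (2.53 and 2.22). SPRY4 encodes an inhibitor of receptor tyrosine kinase signalling. The full-list regions of CLBL-1 were inside GNA15, with 4.04, 3.52 and 4.01, and upstream of STK17B, with 4.22, 3.89 and 4.76. STK17B, a kinase linked to apoptosis, also had peaks of 2.77, 2.51 and 2.44 in untreated 17-71.

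Among 13 regions at 13 genes of apoptosis and the cell cycle, 4 were open in all 5. A further 1 was open only in 17-71 and 2 only in CLBL-1. Each count was 1 in the equal-length lists, and the regions named next are those of the full lists. Downstream of CCND1, which encodes cyclin D1, B4 had 3.05 and B6 had 3.66, and all 3 untreated 17-71 libraries had 3.57 to 4.06, whereas no CLBL-1 library had a peak. The regions of CLBL-1 were upstream of CDT1, a licensing factor of DNA replication (2.59, 2.00 and 2.38), and inside DAPK1, a death-associated kinase (3.24, 2.98 and 3.75). The latter had peaks of 3.42 in B1 and 2.61 in B2 without the inhibitor, the former none in any untreated library. Of 20 regions at 18 transcription factor genes, 3 were open in all 5 and 2 only in 17-71 (BHLHE40 and HLX). A further 4 were open only in CLBL-1 (MAFF, MYBL1, NFIC and ZBTB1). With lists of equal length the counts were 3, 0 and 2, the last being MAFF and NFIC. ZBTB1 had a peak in all 3 untreated 17-71 libraries, MAFF and MYBL1 in 1 each and NFIC in none. Of 18 regions at 17 genes of chromatin and RNA regulators, 5 were open in all 5, none only in 17-71 and 3 only in CLBL-1. The 3 were inside HNRNPU, inside LSM7, a component of the U6 RNA complex, with 3.38, 2.81 and 3.19, and inside MBD3, a subunit of a deacetylase complex, with 3.59, 2.999 and 3.60. LSM7 had no peak in any untreated library, whereas MBD3 had one of 3.67 in untreated B1 and none in untreated CLBL-1. The equal-length lists held 5 of these 18 regions in all 5 libraries, 1 only in 17-71 and 1, HNRNPU, only in CLBL-1. None of the 9 PRMT genes was paired with a region in the list as used here, so their accessibility was not examined. The study reports an accessibility signal at the starts of PRMT1, PRMT5 and PRMT9 that PRMT5 inhibition left unchanged.

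Markers of cell types bore on the labels only in part, because 3 of 13 B cell markers and none of 11 T cell markers were paired. TLR10 was open in all 5 libraries, at 2.76 and 3.25 in 17-71 and 2.53, 2.42 and 2.57 in CLBL-1. CD180 was open only in 17-71, at 2.76 and 2.71. FCMR, the receptor for IgM, was open in B6 (3.21) and in C4, C5 and C6 (3.15, 3.66 and 4.05). The treated equal-length lists held no peak at CD180, and kept TLR10 only in B6 and FCMR only in C5 and C6. Of 9 regions at 9 of 13 markers of myeloid or other cells, 1 was open in all 5, 3 only in 17-71 and 1 only in CLBL-1. The 3 were CD163 (2.79 and 2.62), FCER1A (3.35 and 3.75) and VWF (2.54 and 2.35). The one of CLBL-1 was SELE (3.78, 4.01 and 5.26). With equal-length lists 0 were open in all 5, 1 (FCER1A) only in 17-71 and 1 (SELE) only in CLBL-1. The B cell genes MS4A1, CD79A, CD79B and PAX5 were not analysed here. Upstream of THBD the libraries of 17-71 parted, with 11.1 in B4 and no peak in B6. The merged region at chr24:597942-598647 had 4.42, 4.02 and 5.12 in CLBL-1 and no peak in B4 or B6. The B4 peak thus lay beside it, within the wider span chr24:596421-598647.

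MYC and LCP1 were looked up in all cases. A region overlapping the end of MYC at chr13:25206390-25207838 had a fold of 2.87 in B6 and no peak in B4 or in CLBL-1. Untreated 17-71 held 3.40, 3.06 and 3.38 there, and untreated CLBL-1 none. LCP1 encodes L-plastin, an actin-bundling protein of leukocytes, and its start was open in all 5 libraries, at 4.19 and 3.88 in 17-71 and 5.40, 5.30 and 5.97 in CLBL-1. The values did not overlap, but after scaling the log2 difference of −0.27 missed the threshold (limma, Benjamini-Hochberg adjusted p = 0.0757). A second region inside LCP1 had no peak in any treated library.

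Fold enrichment was then compared in the 9778 regions with a peak in all 5 full lists, as log2 of the largest fold per region after quantile normalisation. All 5 libraries had to hold a peak, so regions open in one line only are not part of this test. At a Benjamini-Hochberg adjusted p under 0.05 and a difference of at least 2-fold in limma, 13 regions (0.133%) were higher in 17-71 and 15 (0.153%) in CLBL-1. Without scaling the counts were 6 and 43, and with median centring 19 and 8, so the split between directions depended on the scaling. The counts were 27 and 20 without B4 and 21 and 25 without B6. Without scaling the median over all regions was −0.171 on the log2 scale. By adjusted p alone, 1078 regions (11%) were higher in 17-71 and 1063 (10.9%) in CLBL-1. This split also moved with the scaling, to 403 and 2228 without any, and the counts fell to 510 and 522 without C4, to 553 and 533 without C5 and to 664 and 610 without C6. Most differences were small, with the 1st percentile at −0.75 and the 99th at 0.74 on the log2 scale.

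The region most raised in 17-71 was at chr22:61381254-61383404, with folds of 14.6 in B4 and 11.2 in B6 against 5.04, 4.62 and 4.64 in CLBL-1 (log2 difference 1.52 ± 0.088 SE, limma adjusted p = 0.000168). In untreated 17-71 its fold varied, from 5.05 in B1 to 6.95 in B3 and 10.7 in B2. Untreated CLBL-1 had 5.08 and 4.68, so the untreated values overlapped between the lines. The region most raised in CLBL-1 was at chr37:124607-128969, with 3.66 and 3.02 in 17-71 against 10.5, 9.99 and 11.2 (log2 difference −1.55 ± 0.094 SE, limma adjusted p = 0.000168). Its untreated values were 2.76 to 4.40 in 17-71 and 12.6 and 7.35 in CLBL-1. Of the 28 regions past both thresholds, 2 were paired with a gene, and both were higher in CLBL-1. One was the start of CYB5A, an electron carrier of the endoplasmic reticulum, at chr1:5068062-5072529, with 3.36 and 2.51 in 17-71 against 7.10, 6.36 and 7.06 in CLBL-1. The log2 difference there was −1.12 ± 0.116 SE (limma adjusted p = 0.00093). The other was a copy of the U2 gene on chromosome 7, described below.

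Among the 131 shared regions paired with a gene, 19 were higher in 17-71 and 13 in CLBL-1 at an adjusted p under 0.05 in limma. Over all shared regions these shares were 11% and 10.9%, so the counts at paired genes lay near the background. Of the 4 class II genes among them, 2 were higher in 17-71, whereas DLA-DQA1 (log2 difference 0.10, limma adjusted p = 0.507) and DLA-DMB (0.04, limma adjusted p = 0.775) did not pass. At the start of DLA-DRA, the alpha chain of the DR molecule, the log2 difference was 0.59 (limma adjusted p = 0.00328). Its untreated folds overlapped between the lines, at 3.32, 3.37 and 3.55 in 17-71 and 3.43 and 3.17 in CLBL-1. At the start of HLA-DRB1, the beta chain of DR, the folds were 5.34 and 5.25 against 4.52, 4.35 and 5.15. The log2 difference there was 0.38 (limma adjusted p = 0.031), and the untreated folds were 6.32, 6.14 and 6.35 against 4.43 and 5.02. CLEC2D, a lectin-like ligand on activated B cells, had 5.31 and 6.19 against 4.31, 4.54 and 4.87 (log2 difference 0.52). FTL, the ferritin light chain, differed by 0.52 and GABARAPL2, of the autophagy pathway, by 0.62. BCL2A1, an inhibitor of apoptosis, differed by 0.41 and CCR1, named for a chemokine receptor but annotated as a pseudogene in the study's list, by 0.39. The groups of BCL2A1 did not overlap but were close, at 4.18 and 4.80 against 4.11, 3.29 and 4.09. On the CLBL-1 side, MAPKAPK5, a stress-activated kinase, had 3.86 and 4.07 against 7.72, 7.69 and 7.59 (log2 difference −0.77). TIMELESS, a protein of replication forks, had 3.27 and 2.61 against 3.97, 4.58 and 4.32 (−0.44). PTPRJ, a receptor tyrosine phosphatase, differed by −0.33 and CSK, the kinase that restrains Src family kinases, by −0.30 on the log2 scale. FTL, GABARAPL2 and MAPKAPK5 were not in the gene lists and were chosen after their values were seen. Regions at TBC1D9B (−0.63) and PLA2G6 (−0.62) also passed on the CLBL-1 side.

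Small nuclear RNA genes were looked at after their values were seen. The count covered 31 regions at or near genes of the U1, U2, U4, U5 and U6 RNAs, in the equal-length lists. Of these, 5 (16.1%) were found only in 17-71, 7 (22.6%) only in CLBL-1 and 13 (41.9%) in all 5. The shares of all merged regions were 16.6%, 16% and 19.1%, so the line-specific shares lay near the background. These genes are present in near-identical copies, between which reads may be divided, so the values at single copies are uncertain. At 5 regions over copies of the U2 gene within chr9:19846573-19896246 (49.7 kb), every fold of treated CLBL-1 was above those of treated 17-71, which had a peak in both libraries at 4 of them and only in B6 at the other. The region at chr9:19888376-19889534 had 2.92 and 2.70 in 17-71 against 5.83, 5.36 and 5.73 in CLBL-1, and untreated 17-71 had 2.61 to 4.12 against 5.30 and 5.23 in untreated CLBL-1. The copy on chromosome 7 at chr7:29605043-29605493 had 5.92 and 4.35 against 11.6, 10.6 and 12.0 (log2 difference −1.01 ± 0.096 SE, limma adjusted p = 0.000797). Another shared region within the same 49.7 kb, at chr9:19870236-19871782 and not paired with a gene, went the other way, with 4.79 and 4.61 in 17-71 against 2.11, 2.33 and 1.99 (log2 difference 1.29). Of 7 regions at U1 copies, 4 held a peak in all 5 equal-length lists and 2, both on chromosome 9, only in CLBL-1. All 5 regions at U5 copies were open in all 5 libraries. Of 11 regions at or near U6 copies, 4 were found only in 17-71, 1 only in CLBL-1 and 2 in all 5.

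Shared regions allowed the line difference to be set beside that of untreated cells in other libraries. Over the 9155 regions with a peak in all 10 libraries, the 2 line differences had the same sign in 74.7% and a Pearson correlation of 0.723 across regions, which are not independent and share the properties of the genome. In a limma fit over all 10 libraries, 2123 regions differed between treated lines at an adjusted p under 0.05, and in 2007 of them the untreated difference had the same sign. The difference between lines changed with treatment in 4 regions (0.0437%) at an adjusted p under 0.05, and in 1043 (11.4%) at an unadjusted p under 0.05. The number was 4 with median centring and 0 without scaling. In all 4 the fitted difference changed its sign between treated and untreated cells. At chr6:42424775-42426407 the folds were 7.59 and 5.51 in treated 17-71 against 4.39, 4.19 and 4.19 in treated CLBL-1, but 4.08 to 4.87 in untreated 17-71 against 6.44 and 7.56 in untreated CLBL-1. None of the 4 was paired with a gene.

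Line-specific regions were spread over the genome, but unevenly. Of 2312 windows of 1 Mb with a merged region, 1458 held both kinds, 458 only those of 17-71 and 228 only those of CLBL-1. The windows named next were chosen after their values were seen, among those with the largest counts of line-specific regions. Such counts grow with the number of regions in a window. Over all merged regions, 16.6% were found only in 17-71 and 16% only in CLBL-1. Between 39 and 40 Mb of chromosome 14, 18 of 32 regions were found only in 17-71 and 2 only in CLBL-1. They included a run of 8 neighbouring regions with no other region between, at chr14:39714200-39892713, beginning 208 kb beyond the paired region of HNRNPA2B1. All 8 held a peak in every untreated 17-71 library, and none in untreated CLBL-1. Another run of 8, at chr13:62322697-62400520, lay 130 kb before the region paired with PPBP, a platelet chemokine gene close to CXCL8 in RefSeq order. Of these 8 regions, 5 held a peak in every untreated 17-71 library, and none of the 8 held one in untreated CLBL-1. Between 21 and 22 Mb of chromosome 38, 21 of 80 regions were found only in CLBL-1 and 6 only in 17-71. This window held the regions of CD48 and KLHDC9, and CD48 has the lymphocyte receptor genes SLAMF7, SLAMF1, LY9, CD244 and CD84 as neighbours in RefSeq. Between 22 and 23 Mb of chromosome 9, which includes the region of CCR7, a receptor that guides lymphocytes to lymph nodes, 14 of 50 regions were found only in CLBL-1 and 1 only in 17-71. The region of CCR7 itself held a peak in all 5 libraries, with a log2 difference of 0.27 (limma adjusted p = 0.0766). That of CD48 also did in the full lists (−0.12, limma adjusted p = 0.328). The region of HNRNPA2B1 held no peak in any treated library, and that of PPBP held one in B4 alone. Runs of at least 5 line-specific regions numbered 48 in 17-71 and 13 in CLBL-1. The 17-71 set requires a peak in 2 libraries and the CLBL-1 set in 3, so these counts are not like for like. The longest held 9 regions in 17-71, at chr4:86975626-88195858, and 6 in CLBL-1.

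The share of peaks on each chromosome differed between the lines for most chromosomes. In the equal-length lists, the shares did not overlap for 29 of 39 chromosomes (74.4%), of which 15 were higher in 17-71 and 14 in CLBL-1. With 5 libraries no chromosome could reach an adjusted p under 0.05, and the smallest was 0.144 (two-sided exact permutation test, Benjamini-Hochberg). Chromosome 14 held 2.35% of peaks in B4 and 2.42% in B6, against 1.56%, 1.55% and 1.41% in CLBL-1. Chromosome 9 held 3.62% and 3.60% against 4.75%, 4.79% and 4.92%. Untreated libraries had the same order for 11 of the 15 and 10 of the 14. Chromosome 27 changed its order with the list. It held 2.31% and 2.31% against 2.50%, 2.48% and 2.46% among the 20000 peaks with the largest fold, but 3.65% and 3.43% against 2.42%, 2.41% and 2.38% in the full lists. Chromosome 1 also turned, from a ratio of 17-71 to CLBL-1 of 1.05 to one of 0.971 in the full lists.

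Windows of 3 Mb in the full lists were examined next. No source used here gives the DNA copy number of the lines or says whether peak calling used an input control, and both could change the folds and peak numbers of a window. Over the 440 windows with at least 20 peaks in each treated library, the median fold in 17-71 minus that in CLBL-1 had a median of −0.285. It was −1 or less in 11 windows, 4 of them on chromosome 27, and in 9 of these 11 also without the inhibitor. Between 15 and 18 Mb of chromosome 27, B4 and B6 had 92 and 94 peaks with median folds of 2.56 and 2.40. C4, C5 and C6 had 40, 43 and 29 peaks with median folds of 3.97, 3.67 and 4.70. The 17-71 libraries thus had more peaks there, with a lower median fold. The window between 36 and 39 Mb of chromosome 27, with the regions of CD69, CLEC2D, CD163 and VWF, had 156 and 155 peaks in 17-71 against 90, 86 and 75. Between 42 and 45 Mb of chromosome 14 there were 76 and 89 peaks with median folds of 2.91 and 2.69, against 21, 25 and 21 with 4.69, 3.93 and 4.32. The neighbouring window between 39 and 42 Mb, which holds the run of 8 regions named above, had a ratio of peak shares of 2.92 and a difference in median fold of −0.93. Chromosome 9 had the window with the lowest ratio of peak shares, 0.406 between 48 and 51 Mb, with little difference in median fold (−0.047). The regions of CLEC2D, CD163 and VWF named above lie where the lines differed in this way over megabases, and the part of that difference in their values was not tested.

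**Figure D5:**
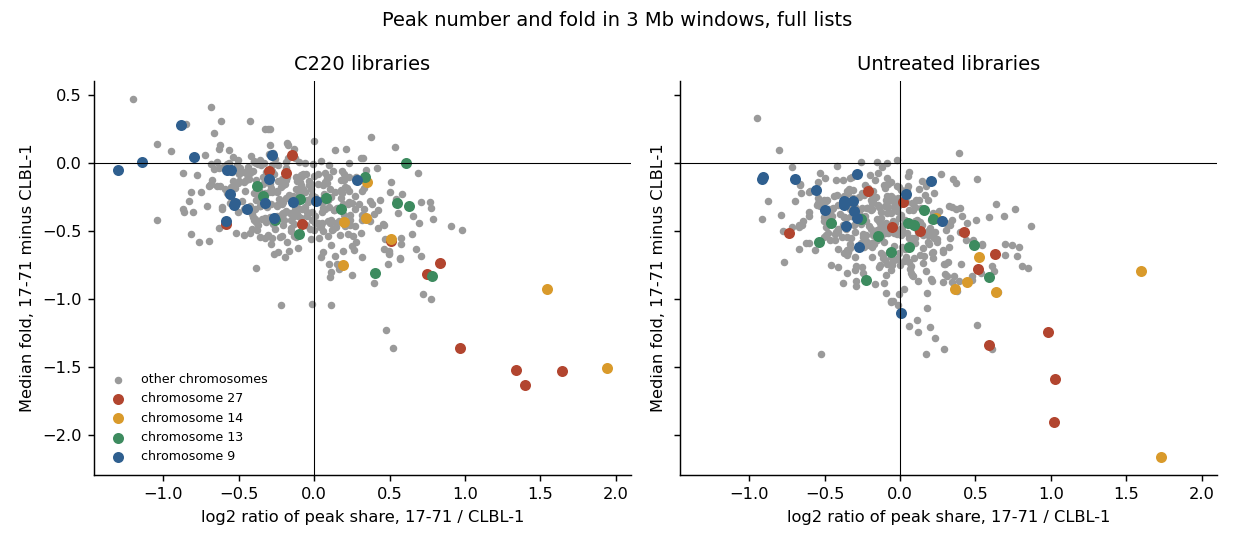
For each 3 Mb window, the log2 ratio of the share of peaks in 17-71 to that in CLBL-1 (horizontal) and the difference of the median folds (vertical), in C220 libraries (left) and untreated libraries (right), with 4 chromosomes coloured. Windows of chromosomes 27 and 14 reach the lower right in both panels, with more peaks and a lower median fold in 17-71.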

How the data were processed

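Peaks of 5 treated and 5 untreated ATAC-seq libraries were analysed, grouped by the labels. The authors aligned reads with Bowtie2 2.2.4 to CanFam3.1 and called broad peaks with MACS2 (version not given in the sources used here), per library and not on pooled reads, after leaving out libraries with outlying correlation. The deposited lists give a fold enrichment (ratio), −log10 p and −log10 q for each peak. A deposited score column was not used. No read counts are given, so depth is unknown.

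Peaks were ranked by fold (20000 per library) and merged where they touched. Exact permutation tests ran over the 10 splits of 5 libraries (smallest p 0.1). Shared regions were tested with limma 3.58.1 (R 4.3.3) on quantile-normalised log2 fold computed from the deposited ratio, with a trend, called at an adjusted p under 0.05 and a log2 difference of at least 1. The procedure was tested on simulated data. For 9778 simulated shared regions it called 179 of 200 changed by log2 1.5, 103 of 200 changed by log2 1.2 and 0 of 9378 unchanged. The simulated noise was normal, with the same spread in every region and library, unlike what real libraries may show. Calls there required a log2 difference of at least 1, so the simulation does not bear on the counts by adjusted p alone.

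Members, gene lists and tests were chosen with earlier results of these data known. Named were the 5 line-specific regions per line with the largest smallest fold, the 15 such gene-paired regions, MYC, LCP1 and members of the gene lists. FTL, GABARAPL2 and MAPKAPK5 were named outside this rule, after their values were seen. Gene pairs are the study's own (position and name only), of which 352 of 383 names were found in RefSeq (UU_Cfam_GSD_1.0), used for gene order alone. Python 3.11.15, pandas 2.3.3 and scipy 1.17.1 were used. Alternatives were other rankings, thresholds, merging, scalings and leaving out each library. The fit over all 10 libraries, the look-up in full lists and the 3 Mb windows were added after seeing the data. Sequences were not analysed here.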

Additional observations from a re-analysis of the deposited data

Results flagged for a closer look

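The line difference changed between treated and untreated cells in 4 shared regions (limma, interaction of line and treatment, Benjamini-Hochberg adjusted p under 0.05). The treated minus the untreated line difference was 1.29 on the log2 scale at chr6:42424775-42426407 (adjusted p = 0.0225), 0.90 at chr37:14713335-14715097 (0.0370), 0.95 at chr8:39464244-39466208 (0.0370) and 0.90 at chr27:17427705-17430002 (0.0443). In all 4 the fitted value was higher in 17-71 with C220 and higher in CLBL-1 without it, although the treated folds of the second and the last overlapped between lines, and none passed without scaling. The values without scaling were 1.27, 0.85, 0.89 and 0.93 in the same order, with adjusted p of 0.158 for the first and 0.663 for the others. The last lies in the window of chromosome 27 with many low-fold peaks in 17-71, and the part of that window in the value was not tested.

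The share of peaks on chromosome 13 was higher in both treated 17-71 libraries than in CLBL-1, with a difference of 0.486 percentage points, and lower in all untreated 17-71 libraries, with a difference of −0.0958. The difference between these was not tested. In the full lists the untreated order was that of the treated libraries.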

How the results depend on the processing

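No paired analysis was possible because the library numbers run on through both arms of a line and no label pairs libraries. Of the results with a comparison, the excess of sharing within lines (32.3 to 37.9 points) kept its direction. Chromosomes with separate shares numbered 29, 35 and 34, but the order of chromosomes 1 and 27 reversed in both other lists. The number of peaks reversed to 1861 more in 17-71 without B4, and was −3709 without B6. With the 10000 peaks of largest fold, 2973 regions were found only in 17-71 and 2888 only in CLBL-1, by construction from shorter lists. Peaks with −log10 p of at least 10 left 2376 in 17-71. Leaving out a library gave 6504 to 9746 in 17-71 (9746 without B4, 9535 without B6) and 6817 to 7245 in CLBL-1. The share with the same pattern untreated was 84.4% and 50.2% with full untreated lists and 72.4% and 73.4% by −log10 p, for 17-71 and CLBL-1, and 45.9% to 63.3% and 60.4% to 64.4% on leaving out a library. Shared regions called higher in 17-71 numbered 6 without scaling and 11 to 27 on leaving out a library (27 without B4, 21 without B6). Those higher in CLBL-1 numbered 8 with median centring, 43 without scaling, 8 at a mean fold of at least 4, and 13 to 25 on leaving out a library (25 without B6). By adjusted p alone, the counts higher in 17-71 were 403 without scaling, 713 at a mean fold of at least 4 and 510 to 1052 on leaving out a library. Those higher in CLBL-1 were 2228 without scaling and 522 to 984 on leaving out a library, lowest in both directions without C4. Regions that changed with treatment numbered 0 without scaling. The cause was not tested. With the lone 17-71 library left, its spread is assumed to equal that of CLBL-1. The unknown depth limits all counts of absent peaks.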
